A study of Mus musculus with 16 samples.

Results

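Neuropeptide genes encode the precursors of small signalling peptides, and 10 of them were followed through the frontal cortex and cerebellum of Upf3b-KO and Ctrl mice. The members, out of 55266 genes in the count matrices, were Sst, Npy, Vip, Cck, Tac1, Pdyn, Cort, Crh, Nts and Adcyap1, and the counts of all transcripts of each gene were summed. Bulk RNA sequencing had been performed on adult mice null for Upf3b, which encodes a protein of the nonsense-mediated RNA decay pathway, and on littermate Ctrl mice. The study asked whether decay acts on different RNAs in different brain regions. The 16 libraries fell into 4 groups of 4, which were Ctrl frontal cortex (Ctrl FC), Upf3b-KO frontal cortex (Upf3b-KO FC), Ctrl cerebellum (Ctrl Cere) and Upf3b-KO cerebellum (Upf3b-KO Cere). Both tissues were taken from 4 Upf3b-null and 4 Ctrl animals, per the study's text. The labels give neither strain, sex nor treatment, and do not tie a library to an animal, so p-values measure only the spread between these libraries, which may be technical. Libraries of the 2 tissues of a genotype may share an animal, and they were treated as independent because they cannot be matched. No cell type or driver is named for the loss of Upf3b.

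Neuropeptides are cut out of longer precursors by proteases, packed into dense core vesicles and released to act mostly on G protein-coupled receptors. In the cerebral cortex, somatostatin, vasoactive intestinal peptide, neuropeptide Y and cortistatin are made by classes of GABAergic interneurons, and cholecystokinin by interneurons as well as excitatory neurons. Tachykinins and dynorphins are abundant in the projection neurons of the striatum, a region that lies below the cortex, and several of the members are made by neurons of the midbrain and hindbrain next to the cerebellum.

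In the GRCm39 annotation the members are spread over the genome, with Npy and Tac1 both on chromosome 6 and Vip and Nts both on chromosome 10. The interneuron peptide genes were Sst (ENSMUSG00000004366) at chr16:23707321-23711733, Npy (ENSMUSG00000029819) at chr6:49799026-49806489, Vip (ENSMUSG00000019772) at chr10:5589186-5599956 and Cort (ENSMUSG00000028971) at chr4:149209491-149211266. Cholecystokinin and the tachykinins come from Cck (ENSMUSG00000032532) at chr9:121315695-121324863 and Tac1 (ENSMUSG00000061762) at chr6:7554120-7565834, and the dynorphins from Pdyn (ENSMUSG00000027400) at chr2:129528469-129541945. The other 3 members were Crh (ENSMUSG00000049796) at chr3:19747565-19749655, Nts (ENSMUSG00000019890) at chr10:102317614-102326396 and Adcyap1 (ENSMUSG00000024256) at chr17:93506397-93515189. Tac1, Npy, Vip and Adcyap1 are on the plus strand and the other members on the minus strand.

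The 15 libraries used held 27660078 to 35238677 counts each, and levels are given as CPM, the counts of a gene scaled to a common library total. A floor of 3 counts equals 0.0851 to 0.108 CPM in them. Upf3b-KO Cere replicate 1 held 64981 counts, where 3 counts already equal 46.2 CPM, and it was left out of every value below, so that n is 3 in Upf3b-KO Cere and 4 elsewhere. Upf3b itself was at 14.2 to 15.7 CPM in Ctrl FC and 0.229 to 0.857 CPM in Upf3b-KO FC. In the cerebellum it was at 20.9 to 23.6 CPM in Ctrl and 0.617 to 0.965 CPM in Upf3b-KO. The libraries of a group were close to each other, with a common biological coefficient of variation of 3.87% to 4.07% in the gene fits. The tissue labels were borne out by their markers in Ctrl mice. Tbr1 and Emx1, which mark cortical excitatory neurons, averaged 49.6 and 6.37 CPM in Ctrl FC and 0.455 and 0 CPM in Ctrl Cere. Pcp2 and Gabra6, which mark Purkinje cells and granule cells, averaged 385 and 747 CPM in Ctrl Cere and 0.0975 and 0.0753 CPM in Ctrl FC.

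Markers of cells that lie outside or beside the labelled regions differed between the genotypes, most of them higher in Upf3b-KO mice. The summed level of 8 choroid plexus genes, an epithelium inside the ventricles, was 22.9 to 23.5 CPM in Ctrl FC and 2200 to 2260 CPM in Upf3b-KO FC, and 31.6 to 35.9 CPM in Ctrl Cere and 1420 to 1440 CPM in Upf3b-KO Cere. The summed level of 8 genes of striatal medium spiny neurons was 155 to 168 CPM in Ctrl FC and 678 to 690 CPM in Upf3b-KO FC, whereas in cerebellum it was 289 to 306 CPM in Ctrl and 208 to 210 CPM in Upf3b-KO. The summed level of 12 genes of midbrain, hindbrain and glycinergic neurons was 61.3 to 64.6 CPM in Ctrl Cere and 391 to 396 CPM in Upf3b-KO Cere. Over the same libraries the summed level of 12 genes of cerebellar neurons was 13800 to 13900 CPM in Ctrl Cere and 5950 to 5980 CPM in Upf3b-KO Cere. The part of these cells in the results on neuropeptide genes was not tested, and in bulk tissue a different number of cells of a type and a different amount of RNA per cell cannot be told apart.

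**Figure D1:**
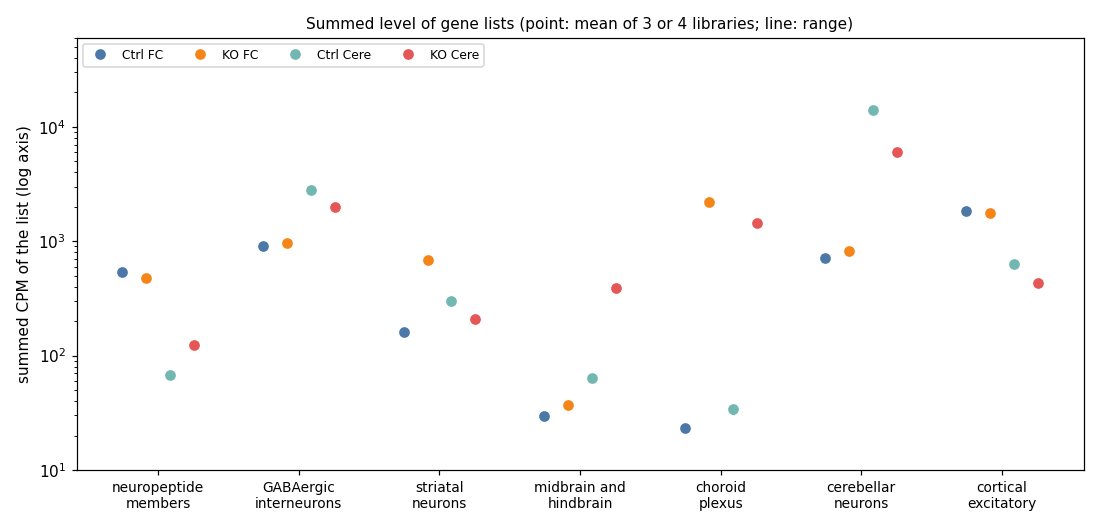
Summed CPM (log axis) of the neuropeptide members and of 6 marker lists in the 4 groups, with the mean as a point and the range over libraries as a line. The choroid plexus list went from 23.1 to 2220 CPM between Ctrl FC and Upf3b-KO FC, and the cerebellar list from 13900 to 5970 CPM between Ctrl Cere and Upf3b-KO Cere.

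Together the 10 neuropeptide genes took 539 ± 4.88 CPM in Ctrl FC and 479 ± 3.52 CPM in Upf3b-KO FC (SD, n = 4 each). In the cerebellum they took 68.3 ± 3.01 CPM in Ctrl (SD, n = 4) and 125 ± 1.31 CPM in Upf3b-KO (SD, n = 3). The sum was thus lower in Upf3b-KO than in Ctrl in frontal cortex and higher in cerebellum, and the libraries of the 2 genotypes overlapped in neither tissue.

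**Figure D2:**
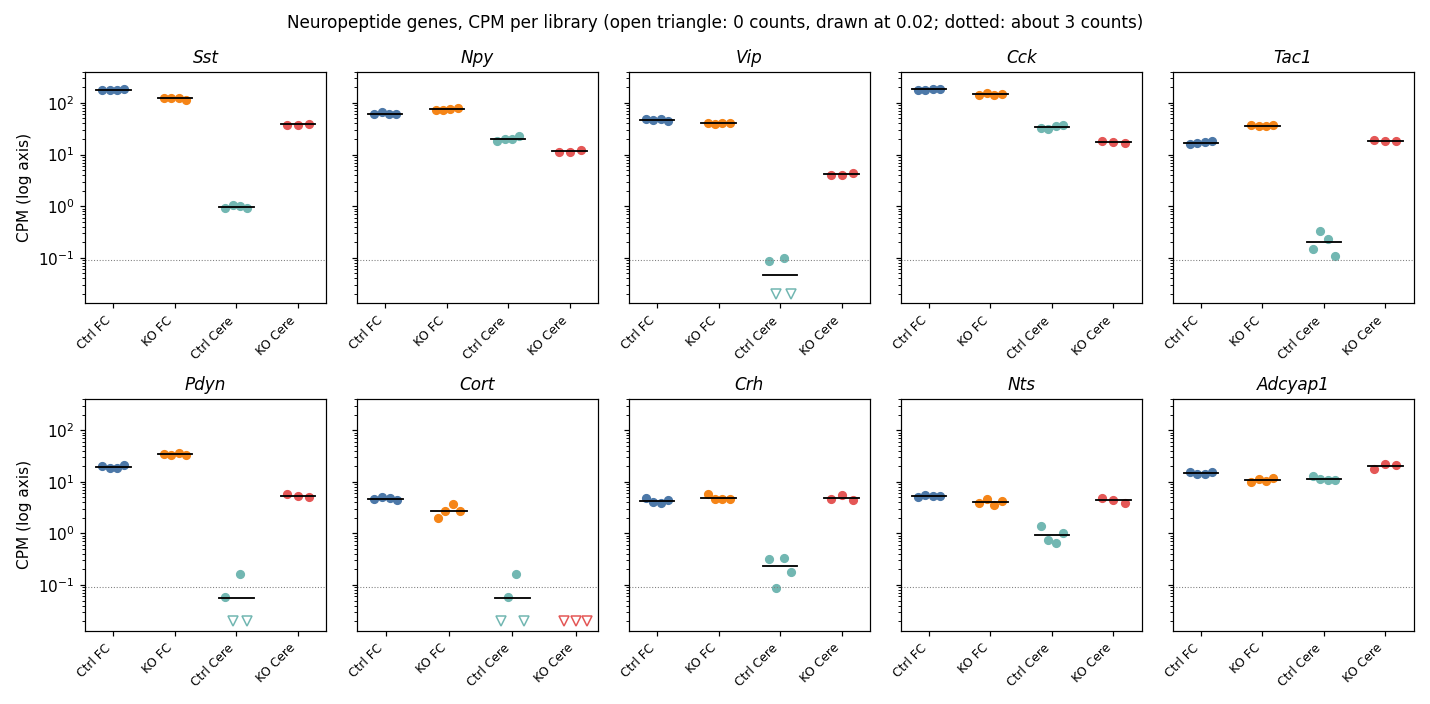
CPM (log axis) of each neuropeptide gene in every library used, with the group mean as a bar, libraries with 0 counts as open triangles drawn at 0.02 and the level of about 3 counts as a dotted line. Sst, Vip, Tac1, Pdyn and Crh lay at 0 to 1.03 CPM in Ctrl Cere and at 4.01 to 38.5 CPM in Upf3b-KO Cere.

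To set genes beside each other, levels were also expressed as CPM per kilobase of transcript. On this scale the order in Ctrl FC was Cck (124 CPM per kb), Npy (109), Sst (106), Vip (29.9), Tac1 (13.3), Pdyn (7.56), Cort (6.55), Adcyap1 (6.51), Nts (4.29) and Crh (3.04). Cck overlapped with Npy, Npy with Sst, and Cort with Adcyap1 in the range over libraries, while all other neighbours in that order were separate. In Upf3b-KO FC, Npy led at 134 CPM per kb, ahead of Cck and then Sst at 71.1, and Tac1 at 28.5 stood above Vip at 25.8, with no overlap between these neighbours. In Ctrl Cere only Npy (35.7 CPM per kb), Cck (23.4) and Adcyap1 (5.09) exceeded 1 CPM per kb on average. In Upf3b-KO Cere the order opened with Sst (22.2 CPM per kb), Npy (20.4) and Tac1 (14.4), each apart from the next, followed by Cck (10.6) and Adcyap1 (8.61), whose ranges overlapped. The order depended on the scale. By CPM without the length, Cck had rank 1 in Upf3b-KO FC, and in Upf3b-KO Cere Adcyap1 had rank 2 and Npy rank 5.

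The first comparison was between the tissues of Ctrl mice. Calls were made with edgeR's quasi-likelihood test, adjusted by the Benjamini-Hochberg method over all genes, and needed an adjusted p under 0.01 together with more than a 2-fold difference. Of the 10 members, 9 were called lower in Ctrl Cere than in Ctrl FC, against 15.9% of all 17521 genes tested, and 0 were called higher, against 9.18%. Vip, Tac1, Pdyn, Cort and Crh passed the filter on low counts through Ctrl FC alone and had to be lower in Ctrl Cere, so this count is not read as a result about the members. Of the 5 that passed in both tissues, 4 were called lower. The exception was Adcyap1, at 14.8 ± 0.815 CPM in Ctrl FC and 11.4 ± 0.959 CPM in Ctrl Cere (SD, n = 4 each), a log2 difference of -0.43 (SE 0.076; adjusted p = 2.88e-05, edgeR). Adcyap1 encodes pituitary adenylate cyclase-activating polypeptide, and the ranges of the tissues did not overlap even though the 2-fold limit was not reached. The log2 difference between the tissues was -9.89 for Vip, -8.43 for Pdyn, -7.60 for Sst, -6.40 for Tac1 and -6.38 for Cort. It was -4.26 for Crh, -2.54 for Nts, -2.48 for Cck and -1.66 for Npy. The values of Vip, Pdyn and Cort rest on 6, 7 and 7 counts pooled over Ctrl Cere. The ratio of pooled counts, Ctrl FC over Ctrl Cere, was accordingly loose, at 991 for Vip (95% exact interval for counting error 455 to 2700), 354 for Pdyn (171 to 881) and 85.6 for Cort (41.3 to 214). Without Ctrl Cere replicate 3 the log2 difference was -9.69 for Pdyn and -7.64 for Cort. The Ctrl libraries of this comparison also serve as the controls of the genotype comparisons that follow.

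In frontal cortex, 1 of the 10 neuropeptide genes was called higher in Upf3b-KO mice, against 9.16% of the 18218 genes tested, and 0 were called lower, against 1.06%. At an adjusted p under 0.05 without a fold limit 9 of the 10 differed, 3 higher and 6 lower, against 53.3% of all genes in either direction. The shifts were therefore small in size but separate from the spread between libraries for most members. The median log2 fold change of the members was -0.34, beside 0 over all genes tested.

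Tac1 was the gene called in frontal cortex. It encodes the precursor of the tachykinins substance P and neurokinin A. It was at 15.7, 16.4, 17.6 and 18.3 CPM in Ctrl FC and at 36.7, 35.6, 35.7 and 37.7 CPM in Upf3b-KO FC, so the genotypes did not overlap. The log2 fold change was 1.02 (SE 0.052; adjusted p = 3.53e-13, edgeR's quasi-likelihood test), close to the limit, and without Ctrl FC replicate 1 it was 0.99 and no longer called. Pdyn, the precursor of the dynorphins, was at 20.1, 18.9, 18.4 and 20.9 CPM in Ctrl FC and at 34.0, 33.7, 35.5 and 32.9 CPM in Upf3b-KO FC. These groups did not overlap either, with a log2 fold change of 0.72 (SE 0.05; adjusted p = 7.62e-11, edgeR), below the 2-fold limit. Both genes are known from striatal medium spiny neurons, and all 8 genes of that marker list were called higher in Upf3b-KO FC, led by Adora2a with a log2 fold change of 3.84 and Drd2 with 3.11, the adenosine and dopamine receptors of these cells.

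Among the interneuron peptides, Sst, the precursor of somatostatin, showed the difference with the smallest adjusted p in frontal cortex. It was at 181, 178, 182 and 187 CPM in Ctrl FC and at 127, 124, 122 and 116 CPM in Upf3b-KO FC. No Upf3b-KO library came near a Ctrl library, and the log2 fold change was -0.65 (SE 0.025; adjusted p = 3.62e-15, edgeR). Cort, which encodes the related peptide cortistatin, was at 4.68, 4.97, 4.75 and 4.53 CPM in Ctrl FC and at 1.97, 2.71, 3.66 and 2.74 CPM in Upf3b-KO FC. Cort was lower in each Upf3b-KO library than in each Ctrl library, with a log2 fold change of -0.85 (SE 0.15; adjusted p = 5.73e-05, edgeR), which became -1.01 and was called once Upf3b-KO FC replicate 3 was left out. Vip went from 44.0 to 49.0 CPM in Ctrl FC to 38.9 to 41.7 CPM in Upf3b-KO FC, a log2 fold change of -0.29 (SE 0.04; adjusted p = 2.8e-06, edgeR) with no overlap.

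Npy, a peptide of several interneuron classes, moved the other way from Sst, Cort and Vip. It was at 60.1 to 65.4 CPM in Ctrl FC and 72.6 to 78.5 CPM in Upf3b-KO FC, with a log2 fold change of 0.22 (SE 0.034; adjusted p = 7.81e-06, edgeR). Cck, whose product cholecystokinin is among the most abundant peptides of the cortex, was at 179, 181, 184 and 186 CPM in Ctrl FC and at 145, 153, 143 and 146 CPM in Upf3b-KO FC. The genotypes were separate, and the log2 fold change of Cck was -0.39 (SE 0.023; adjusted p = 4.13e-12, edgeR). Antisense to Cck the annotation places the long non-coding RNAs Gm68675 and Gm69828, and antisense to Adcyap1 it places Gm32465. Whether reads were counted by strand is not given in the sources used here, so the values of Cck and Adcyap1 are uncertain to that extent.

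The other 3 members had, together with Cort, the lowest levels in frontal cortex. Adcyap1 was at 14.1 to 15.8 CPM in Ctrl FC and 9.71 to 11.9 CPM in Upf3b-KO FC, a log2 fold change of -0.52 (SE 0.077; adjusted p = 6.55e-06, edgeR). Nts, the precursor of neurotensin, was at 5.16 to 5.64 CPM in Ctrl FC and 3.53 to 4.67 CPM in Upf3b-KO FC, with a log2 fold change of -0.46 (SE 0.11; adjusted p = 0.00189, edgeR). For both genes the genotypes did not overlap. Crh, which encodes corticotropin-releasing hormone, was at 3.88 to 4.95 CPM in Ctrl FC and 4.54 to 5.78 CPM in Upf3b-KO FC. These ranges overlapped and no difference was detected, with a log2 fold change of 0.12 (SE 0.12; adjusted p = 0.427, edgeR).

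The markers of interneurons in general showed no called gene in frontal cortex. Of the 14 genes of the GABAergic interneuron list, 0 were called in either direction, the median log2 fold change was 0.03, and the summed level was 908 ± 7.03 CPM in Ctrl FC and 964 ± 8.7 CPM in Upf3b-KO FC (SD, n = 4 each). At an adjusted p under 0.05 without a fold limit, 4 of them were higher and 5 lower. These 9 stand beside the 53.3% of all genes that passed the same limit.

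In the cerebellum, by contrast, 6 neuropeptide genes were called higher in Upf3b-KO mice, against 10.3% of the 17785 genes tested, and 1 was called lower, against 2.86%. All 9 members that could be tested had an adjusted p under 0.05, against 64.4% of all genes, while Cort did not pass the filter on low counts. Vip, Tac1, Pdyn and Crh passed the filter through the Upf3b-KO Cere libraries alone, so they had to be higher there, and the count called is not read as a result about the members. The test of each of these genes was also made with no filter on low counts, and all 4 were called higher there too, with the same log2 fold changes to 2 decimals. The genes called higher were Sst, Vip, Tac1, Pdyn, Crh and Nts, and for each of them every Upf3b-KO library lay above every Ctrl library. With the library of 64981 counts included, Vip and Pdyn did not pass the filter and Cck missed the fold limit, which left 4 members called.

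**Figure D3:**
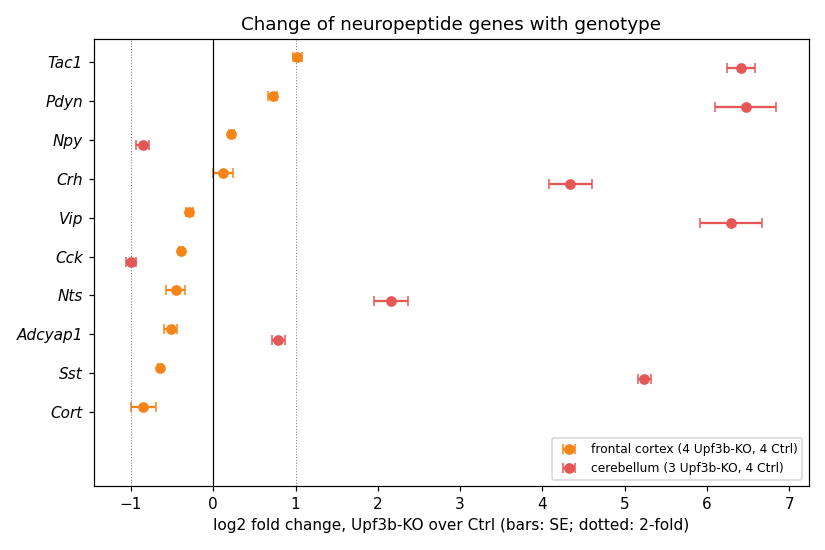
Log2 fold change of Upf3b-KO over Ctrl for each neuropeptide gene in frontal cortex (orange) and cerebellum (red), with SE bars and dotted lines at 2-fold. Cort was not tested in cerebellum. The cerebellar values of Pdyn, Tac1, Vip, Sst, Crh and Nts lay between 2.16 and 6.47, whereas the frontal cortex values lay between -0.85 and 1.02.

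Sst was at 0.926, 1.03, 1.02 and 0.904 CPM in Ctrl Cere and at 38.1, 38.1 and 38.5 CPM in Upf3b-KO Cere. These values rest on 25 to 35 counts in each Ctrl library and 1093 to 1343 counts in each Upf3b-KO library. Sst rose with a log2 fold change of 5.24 (SE 0.083; adjusted p = 6.22e-20, edgeR's quasi-likelihood test), and the ratio of the pooled counts was 39.3 (95% exact interval 32.9 to 47.5). This and the other intervals speak to counting error alone, as no molecular identifiers were used and a molecule can give several reads. As a result, Upf3b-KO Cere held 31.3% of the Sst level of Upf3b-KO FC, where Ctrl Cere held 0.534% of that of Ctrl FC.

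The promoter of Sst is known for its cAMP response element, a palindrome bound by the transcription factor CREB and shared in part by other neuropeptide promoters. The RefSeq promoter window (250 bases before to 50 after the start of the gene in RefSeq) was matched to GRCm39 for 9 of the 10 members. No such window was available for Crh, whose promoter was not examined. For these 9 the RefSeq start lies inside the gene span given above. The full element TGACGTCA was found on either strand in 1 of the 9, Sst, and in 2.03% of the 27025 genes with such windows. The shorter TGACG, which the full element contains, was found on either strand in 7 of the 9 and in 23.0% of all these genes. The Sst element starts 48 bases before the RefSeq start. It is printed with 11 bases on each side, a window at chr16:23709624-23709653 on the minus strand, where capitals mark the palindrome.
Sst promoter: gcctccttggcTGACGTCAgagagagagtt

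Tac1 had 5, 11, 7 and 3 counts in the Ctrl Cere libraries, or 0.145, 0.323, 0.231 and 0.108 CPM. In Upf3b-KO Cere it had 541, 651 and 624 counts, or 18.9, 18.5 and 18.3 CPM. The gap between the groups was far wider than the spread inside them, with a log2 fold change of 6.42 (SE 0.17; adjusted p = 1e-16, edgeR) and a ratio of pooled counts of 90.2 (95% exact interval 61.4 to 139). Tac1 in Upf3b-KO Cere reached 51.1% of its level in Upf3b-KO FC.

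Vip and Pdyn were at the limit of detection in Ctrl Cere. Vip had 3, 0, 3 and 0 counts in the 4 Ctrl libraries and 115, 143 and 149 counts, or 4.01 to 4.38 CPM, in the Upf3b-KO libraries. Pdyn had 2, 0, 5 and 0 counts in Ctrl Cere and 168, 186 and 174 counts, or 5.11 to 5.86 CPM, in Upf3b-KO Cere. For both, no Ctrl library went above 5 counts while every Upf3b-KO library had more than 100. The log2 fold changes were 6.29 for Vip (SE 0.38; adjusted p = 3.07e-11, edgeR) and 6.47 for Pdyn (SE 0.37; adjusted p = 1.24e-11, edgeR). Because the Ctrl counts are so few, the ratio of pooled counts is loosely fixed, at 87.6 for Vip (95% exact interval 39.9 to 240.0) and 97.4 for Pdyn (47.0 to 244).

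Crh and Nts changed by less. Crh was at 0.318, 0.0882, 0.33 and 0.181 CPM in Ctrl Cere and at 4.64, 5.53 and 4.47 CPM in Upf3b-KO Cere. The log2 fold change of Crh was 4.34 (SE 0.26; adjusted p = 2.8e-11, edgeR), and its Upf3b-KO mean was 99.2% of that in Upf3b-KO FC. Crh is known from neurons of the inferior olive in the hindbrain, whose fibres end in the cerebellum. Nts was at 1.39, 0.735, 0.66 and 1.01 CPM in Ctrl Cere and at 4.89, 4.48 and 3.91 CPM in Upf3b-KO Cere. Nts rose with a log2 fold change of 2.16 (SE 0.21; adjusted p = 3.59e-08, edgeR), without overlap between the genotypes.

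Cck and Npy, the members with the highest levels in Ctrl Cere, were lower in Upf3b-KO mice. Cck was at 33.2, 31.5, 35.2 and 36.7 CPM in Ctrl Cere and at 18.3, 17.7 and 16.9 CPM in Upf3b-KO Cere. Its log2 fold change was -1.0 (SE 0.059; adjusted p = 2.04e-11, edgeR), just past the limit. It was -0.99 without Ctrl Cere replicate 3 and -0.97 without Ctrl Cere replicate 4 or Upf3b-KO Cere replicate 4, and was then not called. Npy was at 18.5, 19.6, 20.2 and 22.5 CPM in Ctrl Cere and at 11.2, 11.2 and 12.2 CPM in Upf3b-KO Cere. For both genes the genotypes were separate, and the log2 fold change of Npy, -0.86 (SE 0.076; adjusted p = 8.77e-09, edgeR), stayed under 2-fold. Over the same libraries 9 of the 12 genes of cerebellar neurons were called lower and 0 higher, with a median log2 fold change of -1.17. Car8 and Pcp2, which mark Purkinje cells, had log2 fold changes of -1.57 and -1.44.

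Adcyap1 was at 12.7, 11.4, 10.8 and 10.6 CPM in Ctrl Cere and at 18, 21.7 and 21.2 CPM in Upf3b-KO Cere. It was higher in each Upf3b-KO library, with a log2 fold change of 0.79 (SE 0.081; adjusted p = 8.26e-08, edgeR) that did not reach 2-fold. Cort had 0, 2, 5 and 0 counts in Ctrl Cere and 0 counts in each of the 3 Upf3b-KO Cere libraries, where 3 counts over the group equal 0.0306 CPM, and no difference could be detected at this depth.

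The change with genotype was then compared between the tissues through the tissue by genotype interaction in one fit of the 15 libraries. The interaction, cerebellum minus frontal cortex, was called positive for 7 members, against 6.36% of the 19831 genes tested, and negative for 1, against 3.04%. Its log2 value was 6.57 for Vip (SE 0.27), 5.88 for Sst (SE 0.074), 5.73 for Pdyn (SE 0.3), 5.39 for Tac1 (SE 0.17), 4.21 for Crh (SE 0.28), 2.61 for Nts (SE 0.23) and 1.29 for Adcyap1 (SE 0.12). Adcyap1, Sst, Vip and Nts were lower in Upf3b-KO in frontal cortex and higher in cerebellum, and Tac1 and Pdyn were higher in both. For Npy the interaction was -1.09 (SE 0.075; adjusted p = 4.41e-12, edgeR), since Npy was higher in Upf3b-KO FC and lower in Upf3b-KO Cere. Cck was lower in both tissues, with an interaction of -0.62 (SE 0.057; adjusted p = 7.97e-10, edgeR) that was under the fold limit, and Cort had no detected interaction (adjusted p = 0.093, edgeR).

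Several genes of forebrain interneurons, chosen after their values were seen, were near or at 0 in the cerebellum of both genotypes. This includes the Upf3b-KO Cere libraries in which these peptides were called higher. Dlx1, Dlx2, Dlx5 and Dlx6, transcription factors of forebrain GABAergic neurons, averaged 1.14 to 30.9 CPM in Ctrl FC. In Ctrl Cere they were already near 0, at 0.0237 CPM for Dlx1, 0.00723 CPM for Dlx2 and Dlx5 and 0 for Dlx6. In Upf3b-KO Cere Dlx1 averaged 0.00946 CPM, and Dlx2, Dlx5 and Dlx6 were at 0 in all 3 libraries. Lhx6, a factor of the Sst class, was at 0.318 CPM in Ctrl Cere and 0.118 CPM in Upf3b-KO Cere. It passed the filter through Ctrl Cere alone and so could only be lower. Of the 10 interneuron genes tested in cerebellum 3 were called higher and 1 lower, but Chodl and Htr3a passed the filter through Upf3b-KO Cere alone and so had to be higher. Of the 7 that passed in both genotypes, 1 was called higher and 1 lower. Chodl went from 0.0173 to 21.8 CPM, with 2 counts pooled over Ctrl Cere, a pooled ratio of 1390 (95% exact interval 385 to 11500), and Lamp5 went from 0.506 to 123 CPM, a log2 fold change of 7.88 (SE 0.081). Htr3a, a serotonin receptor, was the third, with 3.85 (SE 0.37). Calb2, which marks granule and unipolar brush cells in the cerebellum, was the gene called lower, with a log2 fold change of -1.05.

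Markers of the regions next to the cerebellum were higher in the same libraries. Of the 12 genes of midbrain, hindbrain and glycinergic neurons, 10 were called higher and 0 lower in Upf3b-KO Cere, beside 10.3% and 2.86% of all genes, although 8 of the 12 passed the filter through the Upf3b-KO libraries alone and so could only be higher. Of the 4 that passed in each genotype, 2 were called higher and 0 lower. Hoxb2, a transcription factor of the hindbrain, went from 1 pooled count in Ctrl Cere to 364 in Upf3b-KO Cere, a pooled ratio of 470.0 (95% exact interval 83.9 to 18600). Slc6a2, the noradrenaline transporter, had a log2 fold change of 7.92 (SE 0.23), and Slc17a6, the glutamate transporter of many brainstem neurons, went from 9.36 to 156 CPM. Of the 8 choroid plexus genes, of which 3 passed in that way, 7 were called higher and 0 lower, among them Ttr with a log2 fold change of 9.15 and Sostdc1 with 8.09. Of the 5 that passed in each genotype, 4 were called higher and 0 lower. In frontal cortex all 8 choroid plexus genes were called higher, with log2 fold changes of 7.81 for Otx2 and 7.79 for Ttr. Otx2 and Kcne2 passed the filter there through Upf3b-KO FC alone, and the 6 that passed in both genotypes were all called higher. Otx2 stands on both the choroid plexus list and the midbrain list, where it was the gene called among 4 tested in frontal cortex.

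Of the remaining marker lists, 4 of the 5 oligodendrocyte genes were called higher in Upf3b-KO Cere, among them Mag with a log2 fold change of 1.29, and 0 of 5 in Upf3b-KO FC. Beside these and the following counts, 10.3% of all genes were called higher and 2.86% lower in cerebellum, and 9.16% and 1.06% in frontal cortex. Of the 5 astrocyte genes 1 was called lower in cerebellum, the glutamate transporter Slc1a3 with a log2 fold change of -1.14, and 0 in frontal cortex. Of the 6 genes of microglia and blood 0 were called in either tissue. Without a fold limit, at an adjusted p under 0.05, all 5 oligodendrocyte genes were higher in both tissues. The 5 astrocyte genes were lower in frontal cortex, and 1 was higher and 4 lower in cerebellum. Of the microglia and blood genes 1 was higher and 3 lower in frontal cortex, and 5 were higher in cerebellum. At this limit 53.3% of all genes differed in frontal cortex and 64.4% in cerebellum, in either direction. Of the cortical excitatory genes, Bcl11b was called higher with 2.18 and Neurod2 lower with -1.03 among 8 tested in cerebellum, and 0 of 10 were called in frontal cortex. Of the 8 striatal genes 2 were called higher in cerebellum, both tested through the Upf3b-KO libraries alone, among them Drd2 with a log2 fold change of 6.17, and of the 8 cerebellar genes tested in frontal cortex 1 was called lower, Cbln1 with -1.16.

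The precursors of 28 other neuropeptides were taken as a wider list, and 17 of them passed the filter in cerebellum. Of these 17, 13 were called higher in Upf3b-KO Cere and 0 lower, beside 10.3% and 2.86% of all genes. The filter sets part of this direction, since 7 of the 17 passed through the Upf3b-KO libraries alone and 1 through libraries of both genotypes combined. Of the 9 that passed in each genotype, 6 were called higher and 0 lower. Calcb, the precursor of a calcitonin gene-related peptide, went from 0.0253 to 4.43 CPM, with a pooled ratio of 186 (95% exact interval 63.2 to 906). Nps, the precursor of neuropeptide S, which is made by small groups of brainstem neurons, had 0 counts in every Ctrl Cere library and was at least 24.5-fold higher in Upf3b-KO Cere, set against 3 counts over the Ctrl group. Summed over the list the level was 159 ± 3.27 CPM in Ctrl Cere (SD, n = 4) and 334 ± 6.24 CPM in Upf3b-KO Cere (SD, n = 3). In frontal cortex 2 of 16 precursors tested were called higher and 3 lower, beside 9.16% and 1.06% of all genes, and among the 13 that passed in each genotype 2 were higher and 2 lower. Penk, the enkephalin precursor of striatal neurons, was at 37.3 CPM in Ctrl FC and had a log2 fold change of 2.67 (SE 0.028), and Avp, the vasopressin precursor, went from 0.501 to 1.25 CPM with 1.23 (SE 0.3). Calcb and Calca were called lower there, with log2 fold changes of -2.28 and -2.06, and both rose in cerebellum. Calcb passed the filter through Ctrl FC alone in frontal cortex and through Upf3b-KO Cere alone in cerebellum, so its direction was fixed by the filter in both.

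**Figure D4:**
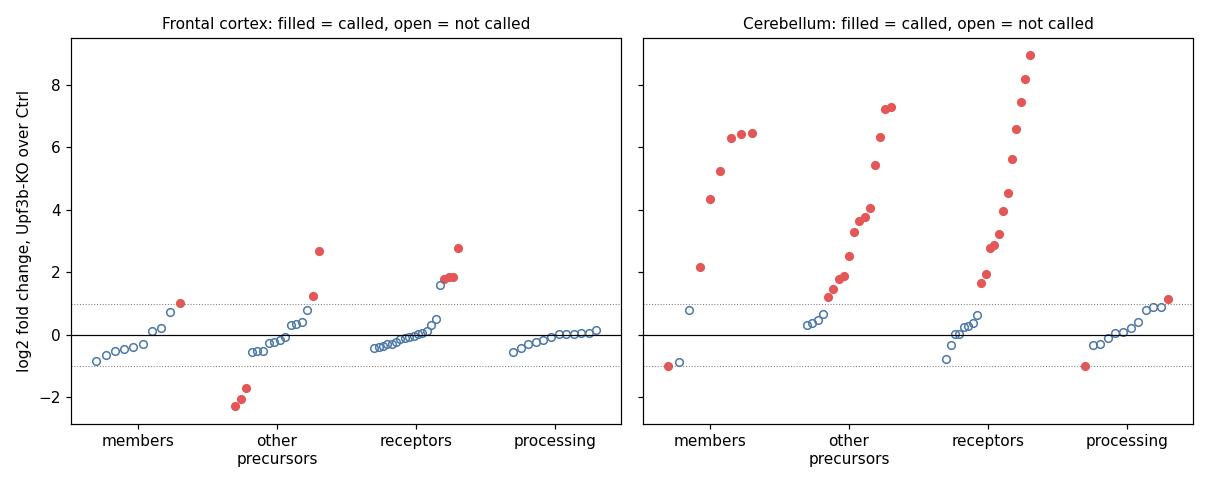
Log2 fold change of Upf3b-KO over Ctrl for every tested gene of the members, the other neuropeptide precursors, the receptors of the member peptides and the processing genes, in frontal cortex (left) and cerebellum (right). Filled points passed the call and open points did not, and in cerebellum 13 of 17 other precursors and 12 of 20 receptors were called, all higher, but 7 of those 17 and 8 of those 20 passed the filter through the Upf3b-KO libraries alone.

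The receptors of the member peptides were counted in the same way. Of the 23 receptor genes, 20 were tested in cerebellum, where 12 were called higher and 0 lower, beside 10.3% and 2.86% of all genes. Of the 20, 8 passed the filter through the Upf3b-KO libraries alone and 1 through libraries of both genotypes combined, and of the 11 that passed in each genotype 3 were called higher and 0 lower. Ntsr1, a neurotensin receptor, and Cckar, a cholecystokinin receptor, had 0 counts in every Ctrl Cere library and were at least 82.2-fold and 48.7-fold higher in Upf3b-KO Cere, set against 3 counts over the Ctrl group. The substance P receptor Tacr1 went from 0.0805 to 8.99 CPM and the neurokinin B receptor Tacr3 from 0.0373 to 7.77 CPM in cerebellum. In frontal cortex 4 of 20 receptors were called higher and 0 lower, beside 9.16% and 1.06% of all genes. Sstr5, a somatostatin receptor, had a log2 fold change of 2.77 (SE 0.5) but passed the filter through Upf3b-KO FC alone. Of the 18 that passed in each genotype 3 were called higher, which were Crhr2 with 1.85 (SE 0.22), Tacr1 with 1.84 (SE 0.14) and Oprk1, the dynorphin receptor, with 1.78 (SE 0.11).

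The 12 enzymes and vesicle proteins that process these peptides were tested in both tissues. In frontal cortex 0 of 12 were called, with a median log2 fold change of -0.04, and in cerebellum 1 was called higher and 1 lower, with a median of 0.16. At an adjusted p under 0.05 without a fold limit, 1 was higher and 6 were lower in frontal cortex, beside 53.3% of all genes in either direction, and 8 were higher and 4 lower in cerebellum, beside 64.4%. The gene called higher was Chga, a granin of dense core vesicles, at 74.8 CPM in Ctrl Cere and 171 CPM in Upf3b-KO Cere, a log2 fold change of 1.14 (SE 0.028). The gene called lower was Cadps2, a vesicle priming factor, at 316 and 164 CPM, a log2 fold change of -1.0 (SE 0.02). Cpe, the carboxypeptidase that trims the cut peptides, was the most abundant of the list and went from 5060 to 3680 CPM in frontal cortex, a log2 fold change of -0.54 (SE 0.0079) that did not reach 2-fold.

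At the level of transcripts, 1 of the 16 member transcripts tested was called in frontal cortex and 8 of 14 in cerebellum, all higher in Upf3b-KO. Of these 8, the transcripts of Vip, Pdyn and Crh and the 3 of Tac1 passed the filter through Upf3b-KO Cere alone and had to be higher. Those of Sst and Nts passed in both genotypes. In cerebellum 3 were called without Upf3b-KO Cere replicate 2, 4 without replicate 3 and 5 without replicate 4, and 5 with the library of 64981 counts included. With DESeq2 or a minimum count of 50, the Cck transcript ENSMUST00000216176 was called lower there, with log2 fold changes of -1.28 and -1.3. The Adcyap1 transcript ENSMUST00000064775 was then called higher, with 1.11 and 1.1. Among all transcripts 2.76% of 42047 were called higher in frontal cortex and 3.45% of 44259 in cerebellum. Of the members' transcripts, 1 was annotated as a target of decay, the Cck transcript ENSMUST00000217581, whose stop codon lies at least 50 nt before the last exon junction. It was at 0 in all 4 groups. Thus none of the counts of these genes was assigned to an annotated decay target in either genotype.

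For Sst, Npy, Cort, Crh and Nts the files hold a single transcript each, and for Vip and Pdyn the main transcript took at least 98.9% of the counts in every library of frontal cortex. Cck was carried mainly by ENSMUST00000035120, with 74.7% ± 1.98 of its counts in Ctrl FC and 72.9% ± 1.72 in Upf3b-KO FC (SD, n = 4 each), and by the short ENSMUST00000216176, with 22.6% ± 2.18 and 24.4% ± 1.38. Most of the counts of Adcyap1 were assigned to the retained-intron transcript ENSMUST00000234204, which took 62.1% ± 6.63 in Ctrl FC, 64.2% ± 1.42 in Upf3b-KO FC and 75.0% ± 4.32 in Ctrl Cere (SD, n = 4 each), and 68.8% ± 7.97 in Upf3b-KO Cere (SD, n = 3). The ranges over libraries of the genotypes overlapped in both tissues for these transcripts of Cck and Adcyap1.

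Tac1 has several coding transcripts, which differ in whether they keep exon 4 (chr6:7557216-7557260, 45 nt, GRCm39) and exon 6 (chr6:7559099-7559152, 54 nt). Exon 6 encodes neurokinin A, while the substance P sequence lies upstream of it. The sequences across the joints show which bases separate them, with the first 15 bases of the downstream exon in capitals.
Tac1 exon 3 to exon 4 (ENSMUST00000185187): gcaagcgggatgctgATTCCTCAGTTGAAA
Tac1 exon 3 to exon 5 (ENSMUST00000184986): gcaagcgggatgctgGACATGGCCAGATCT
Tac1 exon 5 to exon 6 (ENSMUST00000185187): agatctctcacaaaaGGCATAAAACAGATT
Tac1 exon 5 to exon 7 (ENSMUST00000090679): agatctctcacaaaaTGGCTTATGAAAGAA

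The transcript with all 7 exons took 56.3% ± 5.79 of the Tac1 counts in Ctrl FC and 51.7% ± 7.97 in Upf3b-KO FC (SD, n = 4 each), and 62.6% ± 6.82 in Upf3b-KO Cere (SD, n = 3). The transcript without exon 4 took 25.9% ± 4.74 and 32.1% ± 3.68 in the frontal cortex groups and 28.8% to 31.0% in Upf3b-KO Cere, and the transcript without exon 6 took 17.8% ± 3.61 in Ctrl FC, 16.0% ± 6.38 in Upf3b-KO FC and 7.47% ± 6.83 in Upf3b-KO Cere. Between Ctrl FC and Upf3b-KO FC the shares of each of the 3 overlapped. The transcript without exon 4 was the one called in frontal cortex, with a log2 fold change of 1.35 (SE 0.18; adjusted p = 0.00153, edgeR), and the transcript with 7 exons had 0.91 (SE 0.12; adjusted p = 0.00161, edgeR). In cerebellum all 3 were called, with log2 fold changes of 7.68 without exon 4, 7.46 with all exons and 3.92 without exon 6. These calls depended on single libraries. The transcript without exon 6 was not called without any 1 of the Ctrl Cere libraries, at 3.76 to 4.16, nor without Upf3b-KO Cere replicate 2 or 4, at 2.86 and 4.15. The transcript with all exons was not called without Upf3b-KO Cere replicate 2, 3 or 4, at 7.55, 7.42 and 7.43. The Ctrl Cere shares rest on 3 to 11 counts per library and are not compared.

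**Figure D5:**
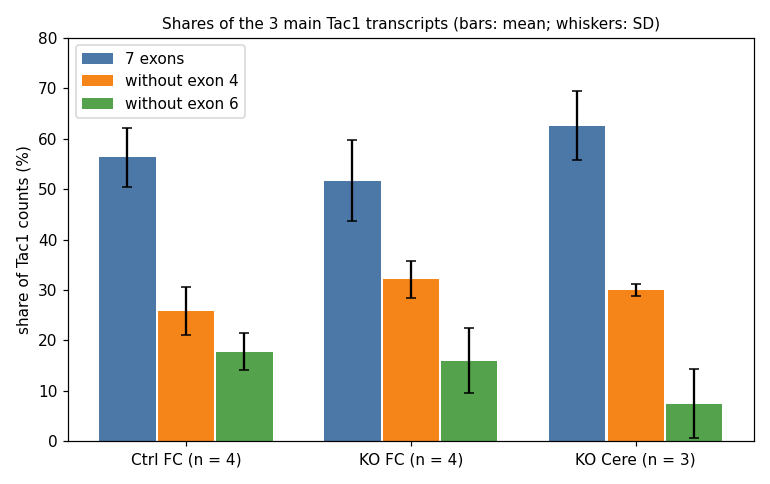
Mean share of the Tac1 counts (percent, with SD whiskers) assigned to the transcript with 7 exons and to those without exon 4 or exon 6, in Ctrl FC, Upf3b-KO FC and Upf3b-KO Cere. The transcript with 7 exons was the largest in all 3 groups, at 56.3%, 51.7% and 62.6%.

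Finally, the genes whose 4 group means were most like those of each called member were listed. The measure was the root mean square difference of log2 CPM after centring each gene, over 19830 genes and 4 groups. An amount of 0.1 CPM was added before the logarithm. Vip and Pdyn averaged 0.0465 and 0.0557 CPM in Ctrl Cere, below this amount, so their matches rest partly on it. The closest pairs were Htr1a and Gabra5 for Sst, with differences of 0.183 and 0.241, and Slit1 and Npy2r for Vip, with 0.13 and 0.198. They were Car12 and Cbln2 for Tac1, with 0.292 and 0.304, and Gabra5 and Npy2r for Pdyn, with 0.431 and 0.432. Hrk was among the closest to Cck (0.103). For Crh the closest were Ankrd34c and Kcna5 (0.164 and 0.188), and for Nts they were Gm30003 and Ip6k3 (0.042 and 0.079). Gabra5, a receptor subunit for GABA, and Npy2r, a receptor for neuropeptide Y, thus each stood among the closest genes of a pair of members.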

How the data were processed

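The authors depleted ribosomal RNA, made SMART-Seq libraries and sequenced read pairs. Per the labels they aligned with STAR 2.5.2b to GRCm39 and used RSEM, and their methods name Ensembl release 105. The deposited matrices hold expected counts (RSEM estimates) per transcript, not scaled for depth, with reads shared between similar transcripts divided by the model. Of 142435 transcripts, 141102 were matched to GENCODE vM39 by identifier and 1333 were not. Library totals of 27660078 to 35238677 counts set the precision of low levels.

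Expected counts were summed per gene over all its transcripts, rounded, and fitted in R 4.3.3 with edgeR 4.0.16 (limma 3.58.1, data.table, version 1.17.8) by the quasi-likelihood F test. Features with few counts were dropped by filterByExpr (count 10, total 15), TMM scaled the libraries, and p-values were adjusted by Benjamini-Hochberg over all features tested. Calls needed more than a 2-fold change at an adjusted p under 0.01. The fits recovered known changes in simulated data, but only large changes in features with many counts were planted there. For transcripts the simulated spread was also smaller than that of these libraries. The simulation therefore does not speak to calls near 2-fold, at few counts or of transcripts. CPM used the total of all counts of a library, including those of unmatched transcripts, and CPM per kb divided each transcript by its length before summing. No pair of replicates agreed within counting noise, so none was taken as a repeat deposit of another, which does not tell technical from biological replicates. Same-numbered libraries did not deviate together (r from -0.093 to 0.23), so numbers were not used as pairs.

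Alternatives were DESeq2 1.42.0, scaling by median ratios, no filter, a minimum count of 50, an adjusted p under 0.05 without a fold limit, the replicate number as a block, the library of low depth included, and leaving out each library. The 10 members and the 12 other gene lists were chosen with earlier results of these data known. All members were described; of other lists, the 2 called genes with the largest change in each direction and the defining genes of the tissues were named. Lhx6, Dlx1, Dlx2, Dlx5, Dlx6, Tacr1, Tacr3, Slc17a6, Crhr2, Oprk1 and Cpe were chosen after their values were seen. Kiss1 was not analysed here. Values of a few genes that the naming rule covers are not reported here.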

Additional observations from a re-analysis of the deposited data

Results flagged for a closer look

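In 2 of the 30 sets of 4 libraries examined, 1 library lay far from the other three by Dixon's criterion, which chance meets in about 1 of 20 sets. These were Npy in Ctrl FC replicate 2, at 65.4 CPM against 60.1 to 60.2 CPM in the others, and Crh in Upf3b-KO FC replicate 1, at 5.78 CPM against 4.54 to 4.71 CPM.

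The change with genotype differed between cerebellum and frontal cortex, by the interaction in edgeR, for 8 members. The log2 interaction was 6.57 for Vip, 5.88 for Sst, 5.73 for Pdyn, 5.39 for Tac1, 4.21 for Crh, 2.61 for Nts and 1.29 for Adcyap1, and -1.09 for Npy.

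The library left out for its depth, Upf3b-KO Cere replicate 1, held 3 counts of Sst, or 46.2 CPM (95% exact interval 9.52 to 135), and 2 counts of Tac1, or 30.8 CPM (3.73 to 111). Both intervals lie above every Ctrl Cere library, at up to 1.03 and 0.323 CPM, and include the levels of the 3 other Upf3b-KO Cere libraries. Npy, Cck and Adcyap1 also held 3 counts each in this library, or 46.2 CPM (9.52 to 135). For these genes the interval includes the Ctrl Cere and the Upf3b-KO Cere levels, so it does not tell the genotypes apart. Vip, Pdyn, Cort, Crh and Nts had 0 counts there, which allows up to 56.8 CPM by the same exact interval.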

How the results depend on the processing

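DESeq2, median-of-ratios scaling and the absence of a filter left the calls of the 10 genes unchanged in all 4 gene comparisons. With a minimum count of 50, 1047 genes were called in frontal cortex and 1500 in cerebellum, where Cck was at -0.99. At an adjusted p under 0.05 without a fold limit, 9 members and 9711 genes passed in frontal cortex, 11453 genes in cerebellum, 13406 between the tissues and 9525 in the interaction, with 10 member transcripts and 6911 transcripts in frontal cortex and 13 and 9973 in cerebellum. DESeq2 called 2738 transcripts in frontal cortex and 4168 in cerebellum. With the library of low depth included, 4 members, 5 member transcripts and 992 transcripts were called in cerebellum. The replicate block changed no gene call of a member. For transcripts the replicate block left 0 member transcripts and 458 transcripts called in frontal cortex, with the Tac1 transcript without exon 4 at 1.36, and 1 and 550 in cerebellum, with none of the 3 Tac1 transcripts called; the cause was not tested, and the numbers do not pair the samples. Leaving out each library in turn gave 0 to 2 members and 1837 to 1943 genes in frontal cortex, 6 to 7 and 2210 to 2294 in cerebellum, 9 and 4432 to 4509 between the tissues, and 8 and 1786 to 1841 in the interaction. For transcripts it gave 1 member transcript and 917 to 1113 transcripts in frontal cortex. In cerebellum it gave 3 to 7 and 1357 to 1767, with 3 member transcripts called without Upf3b-KO Cere replicate 2, 4 without replicate 3 and 5 without replicate 4. The Cck transcript ENSMUST00000213106, at 0.15 in frontal cortex with no call, was at -0.07 without Upf3b-KO FC replicate 4 and at 0.34 without replicate 3. Depth limits Vip, Pdyn and Cort in Ctrl cerebellum, where they lay at 0 to 5 counts, so that their levels there cannot be ordered.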
